A study of Mus musculus with 12 samples.

Results

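Mouse mesenchymal stem cells from adipose tissue, stromal cells isolated from fat, were compared as 3D spheroids and as 2D attached single cells, both collected at 0 h. The comparison covered 6 of the 12 libraries of the series, 3 labelled 3D at 0 h and 3 labelled 2D at 0 h, chosen by their labels alone. The other 6 libraries, labelled 2D and 3D at 24 h, were used to estimate the spread and where stated. Per the labels' protocols, all groups were kept in DMEM with fetal bovine serum and antibiotics at 37 °C and 5% CO2, with no genotype or added agent named, and sequenced from total RNA with a low-input kit and a stranded mRNA library kit. The labels give no strain, age or passage, and do not say how long spheroids had been forming at 0 h. They do not say whether the replicates were separate cultures, so a p-value here covers only library-to-library spread, possibly of a technical kind.

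The deposited tables give Ensembl gene IDs without names, and no table supplied here pairs them with symbols. The symbols below were assigned from general knowledge of well-known Ensembl IDs and could not be checked against a table, so an ID is printed for the genes the text turns on. The supplied positions give a partial check, because in part of the ID series neighbouring numbers tend to lie on 1 chromosome. In that part, 303 of 325 pairs (93.2%) shared a chromosome with at least 1 of the 6 nearest pairs. In the rest it was 41.0% of 273 pairs, where the check says little. Among the genes named below, Plod1, Pfkfb4, Itgb1, Cspg4, Ptgs2, Eif2ak3 and Hspa4l lay in the checkable part and did not share one.

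Cells short of oxygen stabilise the transcription factor HIF, whose targets carry glucose uptake, glycolysis, pH control, vessel growth and mitophagy. Attached and spread cells pull on the surface through integrins, focal adhesions and actin fibres. That tension, with actin polymerisation, feeds the transcription factors SRF, through its MRTF partners, and TEAD, through YAP and TAZ. Spheroids are known to differ from attached cells in oxygen supply and in what they adhere to, which is why the genes are read here for hypoxia, matrix, adhesion and stress.

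At 0 h, 3309 genes were higher and 3255 lower in spheroids among 14338 genes tested, so 45.8% of all genes were called, 23.1% higher and 22.7% lower (edgeR quasi-likelihood test, Benjamini-Hochberg adjusted p under 0.05). At least 2-fold higher were 1566 genes (10.9%) and at least 2-fold lower 1177 (8.21%). The 3 spheroid and 3 attached libraries did not overlap for 7804 genes (54.4%). Calls are therefore common, and a list is read against these shares. The lists and their members were chosen with earlier results of these data known. A list share above that of all genes therefore describes the chosen genes and is not a test. The split between higher and lower calls depended on the scaling. Higher genes made up 50.4% of the calls with TMM scaling, 59.2% with library totals, 60.7% with upper-quartile scaling and 62% with limma on the deposited log2(TPM + 1) values. The median log2 fold change of all genes was 0.02 with TMM and 0.12, 0.14 and 0.13 under those alternatives. Small changes near that size have no firm direction.

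Library totals were 12693454 to 15294768 expected counts in the attached group and 10182590 to 13522294 in the spheroids. Mitochondrially encoded mRNAs took 0.525% ± 0.082 of the counts in attached cells and 0.508% ± 0.00586 in spheroids (SD, n = 3). Across genes, log2 CPM correlated at 0.968 to 0.98 within the groups and 0.905 to 0.926 between them, which describes the libraries only. Of 20 stromal markers, 18 were tested, 8 were higher and 2 lower in spheroids (44.4% and 11.1%, against 23.1% and 22.7% of all genes). The 8 became 5 without attached replicate 1. Of 12 macrophage and leukocyte markers, 8 were at 0 in all 6 libraries, Ptprc (the leukocyte antigen CD45) among them, and the summed level of the 12 was 18.96 to 22.34 TPM in attached cells and 24.4 to 28.75 TPM in spheroids. Endothelial markers summed to 10.4 to 15.16 TPM and 6.76 to 9.33 TPM, with Erg and Cldn5 at 0. Of 11 epithelial and mesothelial markers, 10 were untested and below 1 TPM in all 6 libraries, 5 of them at 0. The other one, the keratin Krt19, rose with a log2 change of 0.97. Adipocyte markers summed to 122.3 to 178.5 TPM and 162.0 to 194.4 TPM, and Schwann and neural crest markers to 1.25 to 3.52 TPM and 9.79 to 10.98 TPM, with Sox10 at 0. Reads that fit several genes were shared out between them in the deposited counts. Of the genes named below, this touched all 12 libraries for Tagln, Actg1, Plod2, Hspa8, Hspa1b, Hsp90b1, Loxl3, Pgk1 and Eno1. It touched some libraries for Ccn2, ENSMUSG00000072568, Timp3, Hspa1a, Notch3, Hif1a, Ca9, ENSMUSG00000109941, Fn1, Dusp5, Eif2ak3, Cdh11, Mt2, Selenbp1, Ankrd1, Bnip3, Zyx, Cd44 and Cdkn1a. In bulk RNA, more cells of a type and more RNA per cell cannot be told apart.

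**Figure D1:**
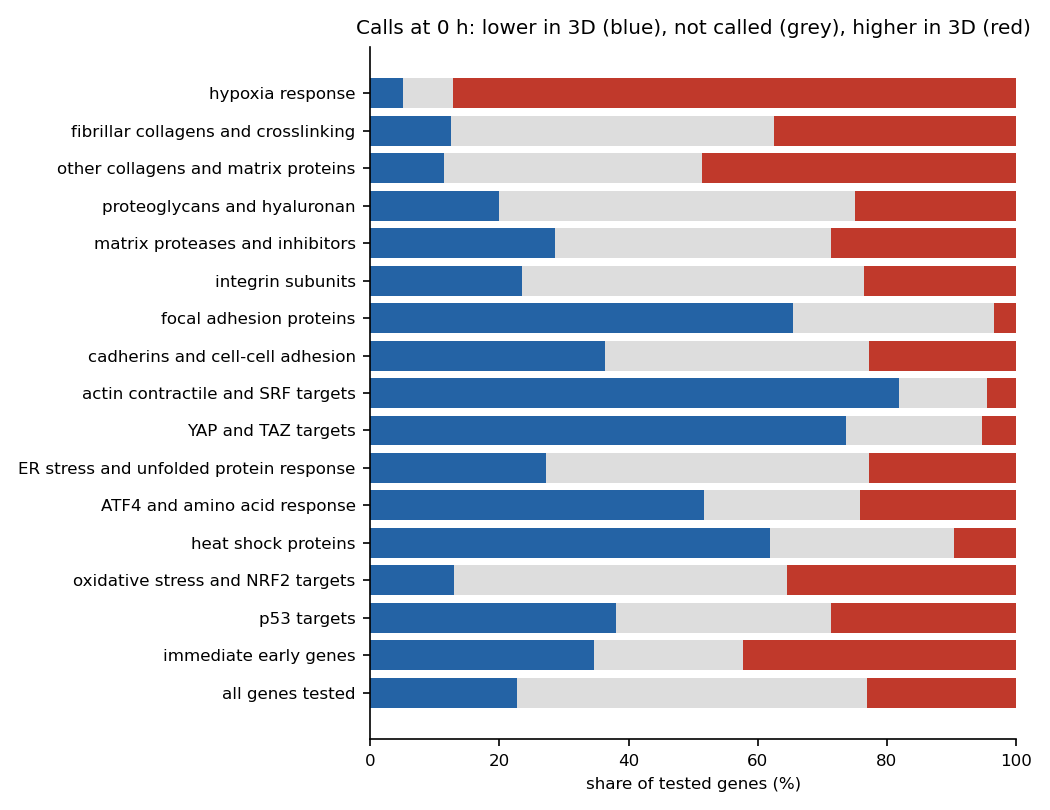
Share of tested genes (x axis, percent) called lower in spheroids (blue), not called (grey) and called higher (red) at 0 h, for each gene list and for all genes tested. The hypoxia list is red for 87.2% of its genes, and the contractile list blue for 81.8%, against 23.1% and 22.7% of all genes.

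Genes of the hypoxia response were higher in spheroids almost throughout the list. All 39 listed genes passed the filter on low counts. Of these, 34 were higher (87.2%, against 23.1% of all genes), 2 were lower and 3 were not called, and 25 were at least 2-fold higher. The median log2 fold change was 1.83, against 0.02 for all genes, and 1.76 to 1.99 over 16 alternative settings. The list's summed level was 13180 to 15560 TPM in attached cells and 28210 to 29840 TPM in spheroids.

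Ndrg1 (ENSMUSG00000005125), a widely used hypoxia marker, had 22.01, 14.2 and 17.1 CPM (read counts relative to TMM-scaled library totals) in the attached libraries and 557.6, 564.0 and 533.7 CPM in the spheroids. The groups were far apart, with a log2 fold change of 4.96 ± 0.16 (SE, adjusted p = 5.02e-13). Bnip3 (ENSMUSG00000078566), a mitochondrial outer membrane protein that marks mitochondria for removal, had 116.1, 119.9 and 101.6 CPM against 1297, 1268 and 1386 CPM. It rose by 3.55 ± 0.11 on the log2 scale (adjusted p = 3.01e-13). All 3 spheroid libraries of both genes stood above every attached one by more than the spread within either group. Ankrd37 (ENSMUSG00000050914), a direct HIF target of little known function, went from 2.58, 1.02 and 0.897 CPM to 79.4, 75.3 and 90.4 CPM, with a log2 change of 5.81 ± 0.35. Ca9 (ENSMUSG00000028463), the cell surface carbonic anhydrase that controls pH around hypoxic cells, had 0 counts in the 3 attached libraries together and 139 in the spheroids. With the attached group set to 3 counts as a floor, it was 51.8-fold higher. The lower 95% counting limit, from the observed 0 counts, was 41.6. Its level stayed low, at 2.44, 4.61 and 4.37 CPM in the spheroids, and part of its reads were shared with other features.

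The oxygen sensors themselves were among the genes that rose. Egln3 (ENSMUSG00000035105), a prolyl hydroxylase that marks HIF for destruction and is itself a HIF target, had 6.97, 4.74 and 6.62 CPM in attached cells and 137.2, 148.7 and 126.2 CPM in spheroids. Its log2 change was 4.49 ± 0.21 (adjusted p = 3.23e-11). Its relative Egln1 rose by 2.11. Hif1a (ENSMUSG00000021109), the oxygen-regulated subunit of HIF, is controlled mainly as a protein. Its mRNA lay at 158.3, 239.7 and 161.4 CPM against 183.6, 175.7 and 218.5 CPM, so the groups overlapped, and its log2 change of 0.05 ± 0.17 was not called (adjusted p = 0.841). Epas1, which encodes the HIF-2 subunit, was not called either, at −0.09.

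The members that serve glucose uptake and glycolysis and are given here differed in size of change, and Pfkfb4, given further on, fell. Slc2a1 (ENSMUSG00000028645), the main glucose transporter of most cells, had 313.9, 245.1 and 311.7 CPM in attached cells and 1065, 1162 and 1009 CPM in spheroids, a log2 change of 1.89 ± 0.11 (adjusted p = 4.05e-10). The second transporter, Slc2a3, rose by 4.17, and the regulatory enzymes Pfkfb3 and Pdk1 by 3.05 and 2.52 (these 3 and Egln1 were singled out after their values were seen). The abundant enzymes changed less. Ldha, which turns pyruvate into lactate, had 4627, 3654 and 3920 CPM against 5778, 5944 and 5228 CPM and rose by 0.47 ± 0.11 (adjusted p = 0.00171). Pgk1, Aldoa and Eno1 rose by 0.60, 0.58 and 0.45.

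Among secreted and signalling products, Vegfa (ENSMUSG00000023951), the vessel growth factor, had 291.3, 331.0 and 346.1 CPM against 698.2, 722.7 and 760.4 CPM and rose by 1.17 ± 0.10 (adjusted p = 6.85e-08). Ddit4, an inhibitor of the growth kinase complex mTORC1, went from 15.3, 14.3 and 25.7 CPM to 298.3, 303.0 and 296.2 CPM, a log2 change of 4.02 ± 0.18. Both genes had every spheroid library above every attached one. Pfkfb4, an isoenzyme of Pfkfb3, moved the other way and fell by 1.69 ± 0.15 (adjusted p = 6.88e-08). Angptl4, a lipase inhibitor, was not called, at −0.25.

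**Figure D2:**
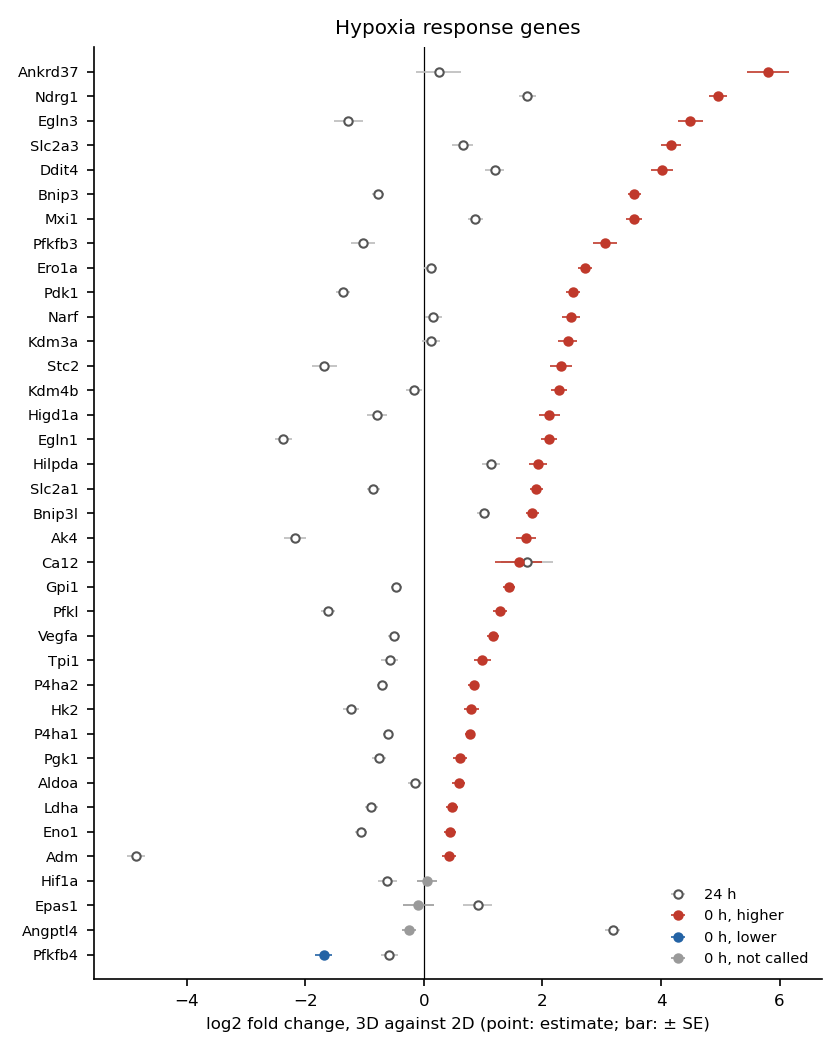
Log2 fold change of spheroids against attached cells (x axis, with SE bars) for the hypoxia response genes reported, filled for 0 h (red higher, blue lower, grey not called) and open for 24 h. Ca9 is left out because it had 0 counts in attached cells at 0 h. At 0 h the points called higher lie between 0.43 (Adm) and 5.81 (Ankrd37), Hif1a lies at 0.05, and many open points lie left of it.

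This pattern at 0 h was unlike that of the 24 h libraries. There the median of the 39 genes was −0.58, with 10 higher and 23 lower in spheroids. The shares of all genes called at 24 h were not counted, so these counts stand without a background. The difference between the times passed the test for 38 of the 39 genes, against 39.1% of all genes. It passed and was larger at 0 h for 35 of the 39, against 20.5% of all genes. Adm, which encodes the peptide adrenomedullin, had a log2 change of 0.43 at 0 h and −4.86 at 24 h.

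The promoters of 4 of the changed genes are printed because these genes were among the strongly changed members of their lists and their upstream sequence held the letters searched for. They were picked after the matches were seen. Each is the 250 bases before a start site of the gene from RefSeq, build GRCm38.p6, 5′ to 3′ on the gene's strand, with matches in capitals. The gene tables were made on GRCm39, so these positions belong to the sequence table only. The motifs were ACGTG, the core that HIF binds, CATTCC, the core that TEAD binds, and the CArG box that SRF binds, each on both strands (GGAATG is CATTCC on the other strand). In the first promoter ACGTG occurs at both ends, and in the second the palindrome around it counts once on each strand.
Ankrd37: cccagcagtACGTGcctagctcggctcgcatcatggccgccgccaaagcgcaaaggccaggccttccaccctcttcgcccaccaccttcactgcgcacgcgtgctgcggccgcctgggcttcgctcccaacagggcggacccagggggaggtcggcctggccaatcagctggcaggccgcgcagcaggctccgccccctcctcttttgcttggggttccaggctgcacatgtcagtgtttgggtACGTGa
Bnip3: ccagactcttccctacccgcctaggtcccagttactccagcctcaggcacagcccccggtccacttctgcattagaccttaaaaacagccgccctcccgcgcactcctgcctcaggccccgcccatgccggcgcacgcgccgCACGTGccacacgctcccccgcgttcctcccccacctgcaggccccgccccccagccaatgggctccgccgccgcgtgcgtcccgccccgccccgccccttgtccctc
Ankrd1: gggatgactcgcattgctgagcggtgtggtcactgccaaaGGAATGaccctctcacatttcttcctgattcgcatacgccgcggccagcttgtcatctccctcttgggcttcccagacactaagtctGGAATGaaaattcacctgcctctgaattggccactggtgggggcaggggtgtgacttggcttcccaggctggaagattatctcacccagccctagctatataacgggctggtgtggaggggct
Srf: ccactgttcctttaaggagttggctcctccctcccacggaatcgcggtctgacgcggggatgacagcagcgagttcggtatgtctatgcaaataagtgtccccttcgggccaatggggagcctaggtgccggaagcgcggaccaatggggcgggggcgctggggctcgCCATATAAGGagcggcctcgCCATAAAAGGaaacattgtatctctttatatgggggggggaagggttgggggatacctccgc

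These windows lie at chr8:45999851-46000100 (Ankrd37), chr7:138909507-138909756 (Bnip3), chr19:36119845-36120094 (Ankrd1) and chr17:46556163-46556412 (Srf), all on the minus strand. Each ends at the base before the start site used for that gene. The Srf window lies inside the RefSeq span of its gene, chr17:46546838-46558267, so it is not upstream of the whole gene. Over the lists, ACGTG was in a window of 19 of 30 matched hypoxia genes (63.3%), against 18.5% of 27025 genes with windows of the same length. A gene counted when any of its windows held the motif. CATTCC was in 9 of 14 matched YAP and TAZ target genes (64.3%, against 14.4%). The CArG box was in 5 of 19 contractile and SRF target genes (26.3%, against 1.6%). The lists hold genes long known as targets of these factors, so the shares describe the lists. A match is not evidence of binding here, and Ndrg1, Ca9 and Ccn2 had no entry in the table.

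Most genes of the contractile and SRF list and of the YAP and TAZ list were lower in spheroids. Cell tension itself was not measured. Of 22 contractile and SRF target genes, 18 were lower (81.8%, against 22.7% of all genes), 1 was higher and 3 were not called, with a median log2 change of −0.81. Of 19 YAP and TAZ targets and partners, 14 were lower (73.7%), 1 was higher and 4 were not called, with a median of −1.20. The single higher gene of the second list lost its call without attached replicate 1 or 3, and without spheroid replicate 1 or 3. Over the alternative settings, the counts of lower genes ran from 13 to 19 and from 11 to 14. The lowest counts came from the setting with only whole expected counts, where fewer genes were tested. There, 13 of 14 and 11 of 16 were lower.

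Ccn2 (ENSMUSG00000019997), a matricellular protein and a standard readout of YAP activity, had 5959, 5514 and 6105 CPM in attached cells and 80.1, 89.2 and 75.3 CPM in spheroids. That was a log2 change of −6.17 ± 0.11 (adjusted p = 1.82e-16), with part of its reads shared with other features. Ankrd1 (ENSMUSG00000024803), a stretch-responsive nuclear and sarcomere protein, went from 166.6, 204.1 and 147.8 CPM to 3.02, 3.20 and 2.77 CPM, a log2 change of −5.84 ± 0.21 (adjusted p = 2.35e-12). Ccn1 (ENSMUSG00000028195), a relative of Ccn2, had 2807, 2572 and 2658 CPM against 223.8, 243.8 and 213.7 CPM and fell by 3.56 ± 0.10. In all 3 genes every spheroid library lay far below every attached one. Of the factors themselves, Yap1 and Tead1 fell by 0.79 and 1.45, while Wwtr1, which encodes TAZ, was not called, at −0.15.

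Srf (ENSMUSG00000015605) had 141.9, 110.1 and 144.9 CPM in attached cells and 16.9, 17.0 and 16.4 CPM in spheroids. It fell by 2.98 ± 0.14 on the log2 scale (adjusted p = 3.73e-11). Lmod1, an actin filament nucleator of smooth muscle, had 64.6, 59.5 and 84.8 CPM against 5.85, 6.17 and 6.21 CPM and fell by 3.51 ± 0.16. Of the actins, Actg1, cytoplasmic gamma actin, had 7299, 6186 and 6526 CPM against 2322, 2447 and 2100 CPM and fell by 1.54 ± 0.09. Acta2 (ENSMUSG00000035783), smooth muscle actin, had 8691, 7904 and 7635 CPM against 5281, 5426 and 4796 CPM, a log2 change of −0.64 ± 0.10 (adjusted p = 4.96e-05), and Tagln, an actin binding protein of the same programme, fell by 0.76 ± 0.11. Markers of pericytes and smooth muscle moved in both directions beside this group. Of 8 tested, 3 were lower and 1 higher (37.5% and 12.5%, against 22.7% and 23.1% of all genes). Without attached replicate 3, 2 were higher. The summed level of all 10 was 1129 to 1203 TPM in attached cells and 637.6 to 751.1 TPM in spheroids. Mcam fell by 3.24, Cspg4 by 2.70 and Cnn1, which is also in the contractile list, by 0.90, Notch3 rose by 2.14, and Higd1b was at 0. The part of such cells in the result was not tested.

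**Figure D3:**
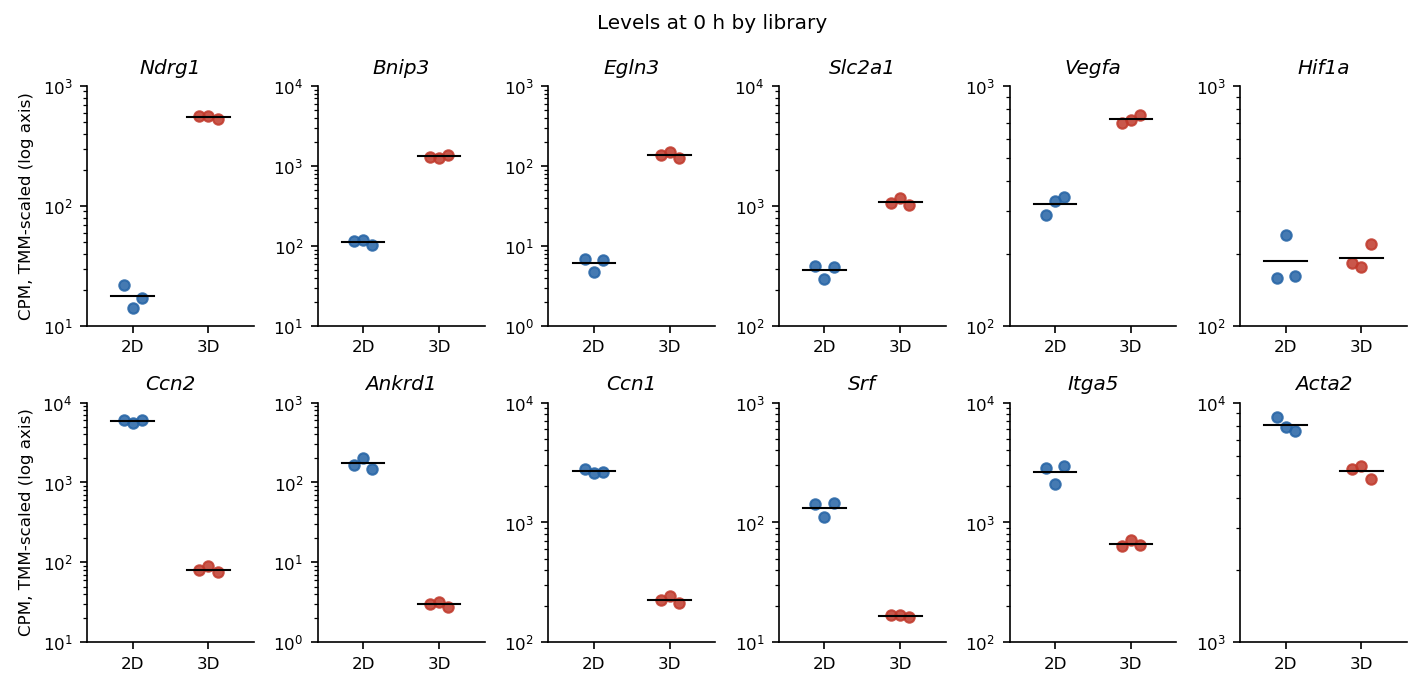
TMM-scaled CPM (y axis, log scale) of 12 genes in each of the 3 attached (blue) and 3 spheroid (red) libraries at 0 h, with the group mean as a bar. The hypoxia genes in the top row separate upward except Hif1a, whose groups overlap. The YAP and TAZ, contractile and integrin genes in the bottom row separate downward, from Ccn2 (log2 −6.17) to Acta2 (log2 −0.64).

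Focal adhesion genes fell alongside. Of 29 genes listed for focal adhesions, 19 were lower (65.5%, against 22.7% of all genes), 1 was higher and 9 were not called. The list includes signalling and caveolar proteins beside those that link integrins to actin. It shares a member with the contractile list and a member with the heat shock list. The median log2 change was −0.65. Without attached replicate 3, 2 were higher. Zyx (ENSMUSG00000029860), which encodes the tension-sensing protein zyxin, had 2733, 2160 and 2540 CPM in attached cells and 539.8, 612.7 and 506.2 CPM in spheroids, a log2 change of −2.16 ± 0.12 (adjusted p = 2.82e-10). Fhl2, a LIM protein that shuttles from adhesions to the nucleus, fell by 2.05 ± 0.10, and Pdlim5 by 1.87 ± 0.13. The single gene that rose was Pxn, which encodes the scaffold paxillin, with 51.8, 40.4 and 63.0 CPM against 93.0, 94.8 and 91.9 CPM and a log2 change of 0.85 ± 0.16.

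The integrin receptors themselves did not move as a group. Of 17 tested subunits, 4 were higher and 4 lower (23.5% each, against 23.1% and 22.7% of all genes), and 9 were not called. Only 1 was higher without attached replicate 2, and also without spheroid replicate 2. Itga5 (ENSMUSG00000000555), the fibronectin receptor subunit alpha 5, had 2859, 2112 and 2971 CPM in attached cells and 635.1, 709.7 and 645.5 CPM in spheroids. It fell by 2.00 ± 0.13 (adjusted p = 2.05e-09), and the groups were well apart. Its partner Itgb1, the beta 1 subunit shared by many integrins, had 1018, 1157 and 1084 CPM against 1103, 1040 and 1152 CPM, with a log2 change of 0.02 ± 0.10 that was not called (adjusted p = 0.91). Itga9 fell by 0.72 ± 0.12.

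Among 22 tested genes of cadherins and cell-cell contacts, 8 were lower (36.4%, against 22.7% of all genes) and 5 higher (22.7%, against 23.1%). The other 9 were not called. Without attached replicate 1, or without spheroid replicate 1, 3 were higher. Cdh2 (ENSMUSG00000024304), N-cadherin, which holds mesenchymal cells together, had 147.7, 149.2 and 167.8 CPM against 209.8, 225.3 and 217.6 CPM and rose by 0.49 ± 0.11 (adjusted p = 0.00153). Gja1, the gap junction protein connexin 43, rose by 0.88 ± 0.11. Cdh11, another mesenchymal cadherin, was not called, at −0.17 ± 0.13. Genes that fell were Gjb2, connexin 26, by 3.32 ± 0.16, Nectin3 by 1.61 ± 0.12 and Cdh3, P-cadherin, by 1.54 ± 0.16. Cadherins and connexins thus each had members that rose and members that fell.

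**Figure D4:**
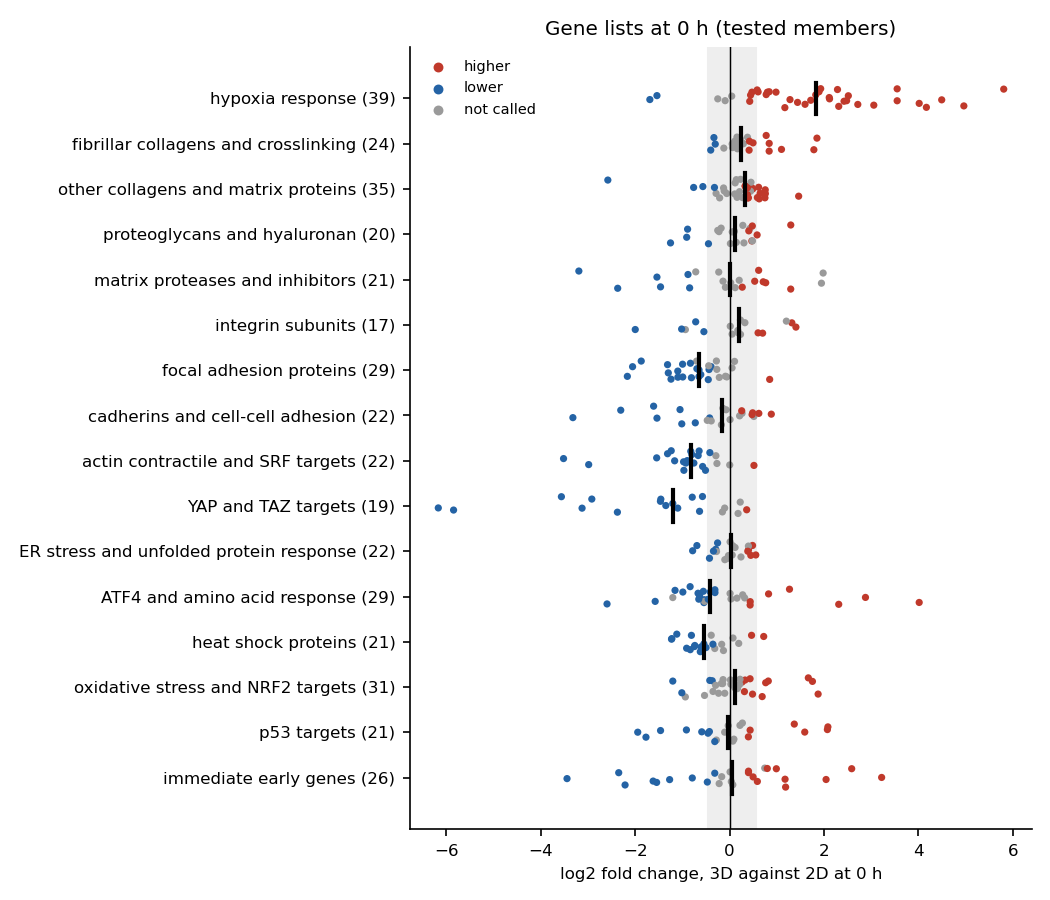
Log2 fold change of spheroids against attached cells at 0 h (x axis) for each tested gene of 16 lists (number tested in brackets), with the list median as a black bar and the quartiles of all genes as a grey band. Red points were called higher, blue lower and grey not called. The hypoxia median lies at 1.83 and the YAP and TAZ median at −1.20, while most matrix and stress lists centre near 0. Ca9 is not drawn.

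The matrix lists had smaller median changes than the hypoxia, contractile, YAP and TAZ and focal adhesion lists, though single matrix genes changed strongly. Of 24 fibrillar collagen and crosslinking genes, 9 were higher (37.5%, against 23.1% of all genes) and 3 lower (12.5%, against 22.7%). The other 12 were not called, and the median log2 change was 0.25. The number higher was 14 with library totals and 15 with upper-quartile scaling. The 3 lower became 0 under both of these and with limma, 0 without spheroid replicate 1 or 3, 1 without attached replicate 1, and 2 without attached replicate 3 or spheroid replicate 2. Col1a1 (ENSMUSG00000001506), the main chain of collagen I, lay at 10394, 7833 and 12758 CPM in attached cells and 12754, 14965 and 12614 CPM in spheroids. The groups overlapped and its log2 change of 0.38 ± 0.18 was not called (adjusted p = 0.0876). It was called at 0.56 (adjusted p = 0.0187) without attached replicate 3 and at 0.48 (adjusted p = 0.0337) with library totals. Col1a2 was not called at 0.23 ± 0.13, but was with upper-quartile scaling (0.34, adjusted p = 0.0417) and without the filter on low counts (0.26, 0.0208). Col3a1, the chain of collagen III, had 2850, 2363 and 3209 CPM against 5138, 5086 and 4838 CPM and rose by 0.84 ± 0.12 (adjusted p = 2.1e-05).

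The enzymes that modify collagen included some of the larger changes of that list. Plod2, a lysyl hydroxylase and a known HIF target, had 52.3, 69.4 and 52.6 CPM against 213.0, 185.8 and 230.2 CPM. It rose by 1.85 ± 0.13 (adjusted p = 5.61e-09), with part of its reads shared with other features. Plod1 rose by 1.10 ± 0.12, and the prolyl hydroxylases P4ha1 and P4ha2, which the hypoxia list also holds, by 0.78 and 0.84. Lox, the crosslinking enzyme lysyl oxidase, was not called, at 0.17 ± 0.14.

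Of 35 other collagens and matrix proteins, 17 were higher (48.6%, against 23.1% of all genes) and 4 lower (11.4%, against 22.7%). The other 14 were not called, and the median was 0.33. The 17 became 10 without attached replicate 1 and 11 without spheroid replicate 2. Thbs1 (ENSMUSG00000040152), thrombospondin 1, a matricellular protein and a known YAP and SRF target, had 7586, 7109 and 9219 CPM in attached cells and 1354, 1331 and 1323 CPM in spheroids. It fell by 2.58 ± 0.12 (adjusted p = 3.67e-11), and no other gene of the list fell 2-fold. Tnc, tenascin C, had 1664, 1451 and 2144 CPM against 1181, 1217 and 1158 CPM and fell by 0.56 ± 0.14 (adjusted p = 0.00308), but was not called with limma on the deposited log2(TPM + 1) values (adjusted p = 0.0792). Eln, elastin, rose by 1.46 ± 0.28 from a low level, 1.72 to 4.76 CPM. Emilin1, an elastic fibre glycoprotein, rose by 0.76 ± 0.12. Fn1, fibronectin, had 2186, 1976 and 2888 CPM against 2965, 3195 and 3002 CPM and a log2 change of 0.38 ± 0.15 (adjusted p = 0.0455). That call was lost without attached replicate 1 (0.33, adjusted p = 0.136) or 2 (0.27, 0.176) and without spheroid replicate 1 (0.41, 0.0696), 2 (0.36, 0.109) or 3 (0.39, 0.0836). Postn, periostin, was not called at 0.11 ± 0.14, but was called at 0.36 (adjusted p = 0.00748) without attached replicate 2.

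Of 20 tested proteoglycan and hyaluronan genes, 5 were higher and 4 lower (25% and 20%, against 23.1% and 22.7% of all genes). Calls in either direction were thus about as common in this list as among all genes. The higher genes numbered 3 without attached replicate 1 and 2 without spheroid replicate 3. Cd44 (ENSMUSG00000005087), the hyaluronan receptor and a stromal marker, had 583.2, 646.9 and 600.6 CPM against 257.4, 260.1 and 252.4 CPM. It fell by 1.25 ± 0.09 (adjusted p = 5.32e-09). The hyaluronan synthases Has1 and Has2 fell by 0.91 ± 0.17 and 0.89 ± 0.14. The receptor and these enzymes were named as the largest called falls of the list, so their shared direction follows from that choice. Dcn, the collagen-binding proteoglycan decorin, rose by 0.58 ± 0.14.

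Of 21 tested matrix proteases and inhibitors, 6 were higher and 6 lower (28.6% each, against 23.1% and 22.7% of all genes). The list median of 0.02 changed sign in 5 of 16 alternatives. The list quartiles, −0.84 and 0.62, lay wider apart than those of all genes, −0.45 and 0.55. Plaur (ENSMUSG00000046223), the urokinase receptor, had 272.9, 268.1 and 228.3 CPM in attached cells and 23.4, 34.7 and 25.9 CPM in spheroids, a log2 change of −3.19 ± 0.14 (adjusted p = 2.47e-11). The inhibitors Timp1 and Timp3 fell by 0.88 ± 0.14 and 1.46 ± 0.10, the latter with shared reads. Mmp11, stromelysin 3, rose by 1.30 ± 0.10 and Adamts1 by 0.71 ± 0.13. Mmp3, stromelysin 1, was not called at 0.20 ± 0.13, though it was at 0.34 (adjusted p = 0.0422) without attached replicate 1. Its call also depended on the scaling. Mmp3 was called with library totals (0.31, adjusted p = 0.0469) and upper-quartile scaling (0.32, 0.0432). With limma on the deposited log2(TPM + 1) values it was called as well (0.35, 0.0484). Mmp13 was near 0, with 19 counts in the attached libraries together and 3 in the spheroids, a ratio of 5.66 with a 95% counting interval of 1.67 to 29.9.

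Stress responses did not move as one. Heat shock genes were lower, with 13 of 21 lower (61.9%, against 22.7% of all genes), 2 higher and 6 not called. Their median was −0.54. The 2 higher became 0 without attached replicate 1 and 1 without any other single library at 0 h. Among the 11 genes whose counts were whole in all libraries, 7 were lower. Hspa8 (ENSMUSG00000015656), the constitutive cytosolic chaperone, had 2839, 2517 and 2571 CPM against 1153, 1166 and 1079 CPM and fell by 1.22 ± 0.08 (adjusted p = 4.37e-09). Chordc1, an HSP90 partner, fell by 1.23 ± 0.15. Hspa1a and Hspa1b are near-identical copies whose reads were split by estimation, so their separate values are uncertain. The reads of Hspa8 were also shared.

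Endoplasmic reticulum stress genes showed no common direction. Of 22, 5 were higher and 6 lower (22.7% and 27.3%, against 23.1% and 22.7% of all genes). The median of 0.03 changed sign in 1 alternative. Those lower were 3 without attached replicate 1, 2 without spheroid replicate 1 and 3 without spheroid replicate 3. Hspa5 (ENSMUSG00000026864), the chaperone BiP and the usual readout of this response, had 2260, 2546 and 2086 CPM against 2270, 2139 and 2379 CPM. The groups overlapped and its log2 change of −0.02 ± 0.09 was not called (adjusted p = 0.853). Manf, a secreted protein that rises with this response, fell by 0.69 ± 0.13.

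Of 29 genes of the ATF4 and amino acid response, 15 were lower (51.7%, against 22.7% of all genes) and 7 higher (24.1%, against 23.1%). The median of this response was −0.41. Atf4 (ENSMUSG00000042406), its transcription factor, had 317.7, 317.9 and 259.9 CPM against 149.96, 142.6 and 158.7 CPM and fell by 0.99 ± 0.11 (adjusted p = 1.57e-06). Slc7a1, an arginine transporter, fell by 2.59 ± 0.15, and Mthfd2, a mitochondrial folate enzyme, by 1.57 ± 0.12. Against that direction, Ddit3, which encodes the stress factor CHOP, rose by 1.27 ± 0.14, Trib3, a pseudokinase it induces, by 0.83 ± 0.15, and Vldlr, a lipoprotein receptor, by 2.88 ± 0.13. Ddit4 and Stc2, which rose as well, are in the hypoxia list too.

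Oxidative stress genes gave 11 of 31 higher (35.5%, against 23.1% of all genes) and 4 lower (12.9%, against 22.7%), with a median of 0.11. Mt1 and Mt2, metal-binding metallothioneins, rose by 1.67 ± 0.26 and 1.88 ± 0.24. Gclc, the rate-limiting enzyme of glutathione synthesis, had 32.3, 32.0 and 38.6 CPM against 128.6, 107.1 and 111.7 CPM and rose by 1.76 ± 0.13 (adjusted p = 1.06e-08). Txnrd1, thioredoxin reductase, fell by 1.20 ± 0.10. Hmox1, the haem-degrading enzyme, fell by 0.37 ± 0.10 and was not called with upper-quartile scaling (adjusted p = 0.0514) or with limma on the deposited log2 values (adjusted p = 0.0805). Among 21 p53 targets 6 were higher and 8 lower (28.6% and 38.1%, against 23.1% and 22.7% of all genes). Their median of −0.03 changed sign in 8 of 16 alternatives. Sesn1 and Trp53inp1 rose by 2.08 ± 0.16 and 2.07 ± 0.18 while Plk2 fell by 1.77 ± 0.10, and Cdkn1a, the cell cycle inhibitor p21, rose by 0.40 ± 0.12.

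Immediate early genes, which answer within minutes to growth factors or handling, moved in both directions. Of 26, 11 were higher and 9 lower (42.3% and 34.6%, against 23.1% and 22.7% of all genes). Their median of 0.05 changed sign in 1 alternative. Fos (ENSMUSG00000021250) had 23.1, 22.9 and 21.3 CPM in attached cells and 288.5, 198.2 and 140.1 CPM in spheroids, so the spheroid libraries differed among themselves by far more than the attached ones. It rose by 3.22 ± 0.32 (adjusted p = 3.12e-07). Egr1, another early transcription factor, had 87.3, 72.8 and 83.7 CPM against 388.8, 329.0 and 287.6 CPM and rose by 2.04 ± 0.16. The phosphatases Dusp5 and Dusp6, feedback inhibitors of ERK signalling, fell by 3.44 ± 0.15 and 2.21 ± 0.17, and Myc, a growth-promoting factor, by 2.35 ± 0.13. In attached cells the means of Dusp5 and Dusp6 were 86.2 and 70.1 CPM at 0 h but 12.6 and 18.3 CPM at 24 h. In spheroids at 24 h they were 37.4 and 31.7 CPM.

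Over all genes, 20 were taken as the 10 highest and 10 lowest log2 changes among called genes of at least 10 CPM with no overlap between libraries. Of these, 11 have a symbol here and 9 do not, and the symbols were assigned after the values were seen, except for Ccn2 and Ankrd1. Where a group has few counts the rank depends on the fit's prior count. Selenbp1 (ENSMUSG00000068874), a selenium-binding methanethiol oxidase, had 4.13, 1.61 and 3.52 CPM in attached cells and 442.8, 438.9 and 439.2 CPM in spheroids, a log2 change of 7.17 ± 0.24 (adjusted p = 1.35e-12), with shared reads. Nos2, inducible nitric oxide synthase, had 1 count in the attached libraries together and 2518 in the spheroids, a ratio of 2820 with a 95% counting interval of 505 to 111000. Gipr, the receptor for the gut hormone GIP, had 0 and 1480 counts. It was 552-fold higher against the floor of 3 counts, with a lower 95% counting limit of 448. Ppp1r3c, a glycogen-targeting phosphatase subunit, had at most 0.657 CPM in attached cells and 39.1, 34.6 and 39.7 CPM in spheroids. Cacna1h, a T-type calcium channel, rose by 6.31 ± 0.53.

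On the lower side, Nppb, the natriuretic peptide BNP, had 415 counts in the attached libraries together and 0 in the spheroids. Against the same floor it was 124-fold lower (limit 100). Tnfrsf12a, the TWEAK receptor Fn14, had 588.0, 527.7 and 470.7 CPM against 24.1, 29.1 and 24.4 CPM and fell by 4.35 ± 0.14 (adjusted p = 5.02e-13). Ereg, the growth factor epiregulin, fell by 4.67 ± 0.30, and Mfsd2a, a lysolipid transporter, by 4.62 ± 0.47. Of the genes without a symbol, ENSMUSG00000034472 had 0 and 502 counts, 187-fold higher against the floor (limit 152), and ENSMUSG00000045667 had 0, 0 and 0.276 CPM against 38.0, 42.6 and 35.5 CPM. ENSMUSG00000109941 had 1113 counts in attached cells and 0 in spheroids, 332-fold lower against the floor (limit 269), and ENSMUSG00000072568 fell by 5.16 ± 0.30.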

How the data were processed

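The authors deposited expected counts per gene and log2(TPM + 1) values for 12 libraries, 3 in each of 4 groups. Per the submitters' processing notes, the tools were STAR, RSEM and FastQC 0.11.9, on GRCm39. The settings, other versions and annotation stand in none of the sources used here. Expected counts share reads that fit several genes, and the report lists the named genes this touches.

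Expected counts were rounded and fitted in R 4.3.3 with edgeR 4.0.16: minimum count 10, TMM scaling, quasi-likelihood model over all 12 libraries with 1 term per group (8 residual degrees of freedom), on 14338 of 56748 gene IDs. A call needed an adjusted p (Benjamini-Hochberg) under 0.05. CPM values are TMM-scaled. Levels compared between genes or summed are TPM, computed back from the deposited log2 values. The steps were tested on simulated counts. Counting intervals and floors cover counting error only. DESeq2 1.42.0 and limma 3.58.1 served in alternatives.

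Gene symbols for 489 listed IDs were written from general knowledge, 477 of which are symbols of the supplied RefSeq table, and 14 more were assigned after values were seen. The members and lists were chosen with earlier results of these data known. Named genes are, per list, the 3 largest called changes each way (at least 5 CPM), 33 genes chosen by name, the 20 most changed of all genes, and others said to be singled out or named as list members. Other calls within a list are given as counts. Some named genes are not reported here.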

Additional observations from a re-analysis of the deposited data

Results flagged for a closer look

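The 3D against 2D difference at 0 h was unlike the difference at 24 h for 5610 of 14338 genes (39.1%, edgeR test of the interaction contrast, adjusted p under 0.05). Of the 119 genes named in the text, 105 passed this test and 14 did not. The values below are log2 differences, 0 h minus 24 h, so that a positive value means that spheroids stood higher against attached cells at 0 h than at 24 h.

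In the hypoxia list the difference was 3.22 for Ndrg1, 4.33 for Bnip3, 5.55 for Ankrd37, 5.77 for Egln3, 4.48 for Egln1, 0.66 for Hif1a and −1.001 for Epas1. It was 2.75 for Slc2a1, 3.51 for Slc2a3, 4.07 for Pfkfb3, −1.11 for Pfkfb4, 3.88 for Pdk1, 1.36 for Ldha, 1.36 for Pgk1, 0.74 for Aldoa and 1.51 for Eno1. It was 1.67 for Vegfa, 2.82 for Ddit4, 3.99 for Stc2, −3.43 for Angptl4 and 5.28 for Adm. Ca9, with 0 counts in attached cells at 0 h, passed the test (adjusted p = 0.00428) but its fitted size depends on the prior count.

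In the YAP and TAZ list it was −2.49 for Ccn2, −0.80 for Ccn1, 1.54 for Ankrd1, 0.62 for Yap1 and −0.52 for Wwtr1. In the contractile list it was −1.61 for Srf, 2.52 for Lmod1, 3.75 for Acta2, 2.68 for Tagln and 3.62 for Cnn1. Thus the contractile genes Acta2, Tagln and Cnn1 stood further below attached cells at 24 h than at 0 h, and Ccn2 and Srf less far. Of the cell type markers it was −3.40 for Cspg4, 0.85 for Notch3 and 5.45 for Krt19.

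Among adhesion genes it was −0.39 for Fhl2, 1.57 for Pxn, −1.11 for Itga5, 1.20 for Itgb1, −0.80 for Itga9, 1.40 for Cdh2, 0.58 for Gja1, −0.96 for Cdh11, 1.89 for Gjb2, −1.54 for Nectin3 and 3.75 for Cdh3. In the collagen and matrix lists it was 0.78 for Plod1, 2.12 for Plod2, 1.38 for P4ha1, 1.54 for P4ha2, 0.56 for Col1a2, 2.27 for Lox, 1.36 for Thbs1, −0.87 for Tnc, −1.65 for Eln, 0.84 for Emilin1, 1.15 for Fn1 and −1.19 for Postn. It was −0.69 for Cd44, −1.24 for Has1, −1.43 for Has2, −2.21 for Dcn, −2.69 for Plaur, −1.07 for Timp1, 1.13 for Timp3, −0.95 for Mmp11, 3.05 for Adamts1 and −3.85 for Mmp3. Mmp13, with 3 counts in spheroids at 0 h, passed the test (adjusted p = 1.21e-06).

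Among stress genes it was −1.17 for Hspa8, −1.03 for Chordc1, 1.87 for Hspa1a, 0.91 for Hspa1b, 0.40 for Hspa5, −1.01 for Atf4, −0.90 for Slc7a1, −0.44 for Mthfd2, 0.76 for Ddit3, 1.02 for Trib3 and 2.86 for Vldlr. It was 1.28 for Gclc, −0.62 for Txnrd1, −0.90 for Hmox1, 0.96 for Sesn1, 1.51 for Trp53inp1, −0.63 for Plk2, 0.54 for Cdkn1a, −5.02 for Dusp5, −2.999 for Dusp6 and −1.79 for Myc.

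Of the genes with the largest changes overall it was 5.55 for Selenbp1, 8.30 for Ppp1r3c, 6.43 for Cacna1h, −3.40 for Tnfrsf12a, −3.10 for Ereg, 9.47 for ENSMUSG00000045667 and −1.60 for ENSMUSG00000072568. Genes with 0 or 1 count in a group passed with adjusted p = 0.000768 (Nos2), 0.000878 (Gipr), 0.000929 (ENSMUSG00000034472) and 6.73e-09 (ENSMUSG00000109941). For 4 genes described among the other observations it was −4.59 for Inhba, −4.70 for Il11, −3.66 for Hbegf and −1.60 for Ptgs2.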

How the results depend on the processing

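Over 16 alternatives the count of genes called at 0 h stayed between 5081 (only genes with whole counts) and 6849 (DESeq2), within 1.5 times of 6564, and that of the difference between times between 4566 and 6007. Without 1 library the calls at 0 h numbered 5614 to 6456, with 2846 to 3214 higher and 2690 to 3242 lower, and the difference between times 5003 to 5867. For 155 genes, 2446 values were recomputed: 2349 kept their direction or, where not called in either, their lack of a call, 85 lost a call, 12 gained one and 0 called values changed sign. Values not called in either changed sign 18 times, for Hspa5, Epas1, Hif1a, Itgb1 and Postn. Calls changed for 26 genes, and 15 lost one without a single library: Col14a1, Col5a1, Col5a3, Eif2ak3, Fn1, Gpc3, Hsp90b1, Hspa1a, Hspa4l, Itga2, Itga7, Itgb7, Loxl3, Rbms3 and Vcan.

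With the replicate block 6127 genes were called. The replicate numbers did not pair the samples: deviations of same-numbered libraries correlated at 0.0391, −0.105 and −0.0372, and 0 of 3 matched their own number best. The block ended the calls of Fn1 (adjusted p = 0.0571), Rbms3 (0.0575), Col5a3 (0.0618), Itgb7 (0.065) and Eif2ak3 (0.0706).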

Other observations

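The secreted factors Inhba, Il11 and Hbegf and the enzyme Ptgs2 were lower in spheroids at 0 h. They were singled out, and their symbols assigned, after their values were seen, and form no list. Inhba, the activin A subunit, had 1793, 2913 and 1422 CPM in attached cells and 106.7, 98.0 and 97.7 CPM in spheroids, a log2 change of −4.34 ± 0.21 (SE). Il11, interleukin 11, had 155.3, 168.2 and 144.1 CPM against 9.06, 10.4 and 11.4 CPM and fell by 3.92 ± 0.14. Hbegf, a ligand of the EGF receptor, fell by 3.84 ± 0.14. Ptgs2, the inducible cyclooxygenase, had 291.6, 479.7 and 310.5 CPM against 44.9, 42.3 and 47.1 CPM and fell by 3.01 ± 0.21. For each of the 4 genes the groups did not overlap, as for 54.4% of all genes. At 24 h the attached and spheroid means were 456.3 and 543.4 CPM for Inhba and 8.55 and 14.7 CPM for Il11. They were 33.6 and 29.8 CPM for Hbegf and 228.1 and 85.9 CPM for Ptgs2. For Inhba, Il11 and Hbegf, attached cells at 24 h thus lay far below attached cells at 0 h, near the spheroids of 24 h.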
